A study of Mus musculus with 6 samples.

Results

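The class I odorant receptor genes Olfr592 to Olfr639 form the middle stretch of the class I cluster on mouse chromosome 7. The rule for a member uses the symbol, taking every gene from Olfr592 to Olfr639 with no pseudogene suffix, and was set with earlier results of these data known. This gave 37 genes of the 1106 odorant receptor genes in the count table. Of the 48 numbers in the range 11 have no such row, 8 of them because the table holds the number only as a pseudogene. The study sequenced poly-A selected RNA of olfactory epithelium in 2 groups of C57BL/6J mice, 3 libraries from mice hemizygous for the transgene 5x21-OR1A1 and 3 libraries from wild-type mice. OR1A1 is a human odorant receptor, and the study's title names receptor choice as its subject. The labels give no age or sex of the animals, do not say whether the libraries came from separate animals, and do not describe the promoter or the number of transgenic lines, so a p-value here weighs a difference only against the spread among the 6 libraries.

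Odorant receptors are the G protein-coupled receptors of olfactory sensory neurons, and a mature neuron expresses a single receptor gene from a single allele. Mammalian receptors fall into class I, first known from fish, and the larger class II. The mouse class I genes lie in a single cluster that also encloses the beta-globin genes, a long-range enhancer called the J element acts on many of them, and class I neurons lie mostly in the dorsal epithelium. Many class I receptors respond to hydrophilic odorants such as carboxylic acids. The choice of a receptor is held by a feedback signal that the expressed receptor sets off.

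The 37 genes spanned 833 kb of chromosome 7 (GRCm38, chr7:103184803-104017303) in the order of their numbers, 20 on the plus and 17 on the minus strand, and all were annotated as protein coding in GENCODE. 31 lay before the beta-globin genes in chromosome coordinates and 6 after them. Coding regions were 924 to 981 bases long, and the median nucleotide identity of the coding regions was 59.7% over 666 pairs, from 55.1% to 99.5%. RefSeq synonyms put 36 of them into 19 subfamilies of the MOR nomenclature. Of the 37 genes 7 overlapped another annotated gene, among them Olfr615 and Olfr616, which overlap each other on opposite strands, so that their reads cannot be told apart in nonstranded libraries where they overlap.

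The sequences that follow first show 3 neighbouring genes of subfamily MOR31 on the plus strand (Olfr617, Olfr618 and Olfr619, described with their values further on). Olfr617 and Olfr618 were called lower in the transgenic libraries. Olfr619 did not pass the edgeR test and its groups overlapped, so a difference between the genotypes was not shown for it. Shown are coding bases 61 to 150 of Olfr618, counted from the A of the start codon in the GENCODE transcript, and the bases aligned to them; capitals mark bases that differ from Olfr618. Over this stretch Olfr617 differed at 15 of 90 bases and Olfr619 at 14, and over the whole coding region their identity to Olfr618 was 81.3% and 79.4%. Gene spans in GRCm38 are chr7:103590103-103600448 for Olfr618, chr7:103573061-103586795 for Olfr617 and chr7:103600575-103604859 for Olfr619.
Olfr618: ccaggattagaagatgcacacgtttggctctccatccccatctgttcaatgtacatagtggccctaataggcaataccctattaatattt
Olfr617: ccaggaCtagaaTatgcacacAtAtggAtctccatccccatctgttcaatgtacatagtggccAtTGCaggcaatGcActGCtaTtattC
Olfr619: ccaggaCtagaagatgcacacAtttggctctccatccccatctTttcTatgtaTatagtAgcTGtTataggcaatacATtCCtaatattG

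The most alike pair is shown next, because identity limits which reads can be assigned to a gene. Olfr596 (chr7:103305648-103312782, plus strand) and Olfr603 (chr7:103383062-103386177, minus strand) shared 99.5% of coding bases, and coding bases 61 to 150 differed at 1 base, the capital below. Of 837 windows of 100 bases, the read length, 433 in the coding region of Olfr603 were found unchanged in that of Olfr596. The same held for 287 of 870 windows between Olfr611 and Olfr612 (97.5% identity), 164 of 864 between Olfr638 and Olfr635 (96.6%) and 52 of 846 between Olfr597 and Olfr598 (96.9%). Values of these 8 genes are uncertain, since the handling of reads with several matches is not given in the sources used here. The windows do not measure how far, because they leave out noncoding exon bases. Coding bases were 963 of 8565 exon bases in Olfr635 and 936 of 1021 in Olfr603. Olfr628 was in the same position towards Olfr243, a class I gene of the interval outside the number range (97.5% identity, 193 of 849 windows).
Olfr596: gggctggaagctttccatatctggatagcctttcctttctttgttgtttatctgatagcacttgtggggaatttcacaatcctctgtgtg
Olfr603: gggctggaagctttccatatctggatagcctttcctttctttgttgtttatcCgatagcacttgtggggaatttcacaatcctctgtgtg

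Promoters are shown of a member that fell, Olfr607, and of a member that did not pass the edgeR test, Olfr630. Olfr630 was lower too, with a log2 fold change (5x21-OR1A1 over wild-type) of -1.11, and passed by DESeq2 (adjusted p = 0.0327). The 2 are thus no contrast of a changed and an unchanged gene. Of 32 members with a RefSeq upstream window only these 2 had one that ended within 50 bases of the 5′ end of a GENCODE gene with a noncoding leader. Shown are the 250 bases before the RefSeq start in GRCm38.p6, on the minus strand, at chr7:103464127-103464376 for Olfr607 and chr7:103757351-103757600 for Olfr630. Capitals mark matches on either strand of TAATTA or TAATGA, letters of homeodomain sites, which receptor promoters are known to carry. Olfr607 held 1 match of TAATTA and 0 of TAATGA, and Olfr630 held 0 and 2. Among 32536 RefSeq upstream windows of 250 bases, 4.84% held TAATTA and 8.59% TAATGA.
Olfr607: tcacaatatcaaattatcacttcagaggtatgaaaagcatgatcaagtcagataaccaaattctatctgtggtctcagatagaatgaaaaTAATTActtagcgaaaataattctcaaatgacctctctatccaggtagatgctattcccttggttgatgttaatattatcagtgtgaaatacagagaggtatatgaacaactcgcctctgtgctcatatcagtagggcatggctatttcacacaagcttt
Olfr630: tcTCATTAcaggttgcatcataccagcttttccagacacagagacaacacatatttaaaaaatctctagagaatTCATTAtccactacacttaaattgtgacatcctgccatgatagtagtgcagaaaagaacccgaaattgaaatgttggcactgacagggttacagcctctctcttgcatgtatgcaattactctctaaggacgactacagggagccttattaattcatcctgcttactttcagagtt

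Library totals were 27506217 to 35423577 counts in 5x21-OR1A1 and 30177731 to 35804712 in wild-type libraries, and the transgene itself is not analysed here. The tissue label was met by its defining genes in all 6 libraries: 14 mature olfactory neuron markers summed to 13542 to 14950 CPM (the count relative to the TMM-scaled library total) in 5x21-OR1A1 and 19783 to 25984 CPM in wild-type libraries. Markers of progenitors summed to 273 to 315 CPM in 5x21-OR1A1 and 158 to 186 CPM in wild-type libraries, and 8 markers of supporting (sustentacular) cells, 1 of them at 0 throughout, to 21294 to 21908 CPM in 5x21-OR1A1 and 22676 to 24080 CPM in wild-type libraries. Read from Xist and Y-linked genes, 2 of 3 5x21-OR1A1 libraries and 1 of 3 wild-type libraries came from females.

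Most receptors of this stretch were lower in 5x21-OR1A1 epithelium. Of the 37 genes, 34 had enough counts to be tested, and 23 of these fell while 0 rose at an adjusted p under 0.05 (edgeR quasi-likelihood test, Benjamini-Hochberg adjustment over 19267 genes). Over all tested genes 2.20% were called lower, 0.519% higher and 2.71% in either direction. By DESeq2 28 members fell, where 4.71% of all genes it tested were lower. DESeq2 and limma-voom also called 0 members higher, and at an unadjusted p under 0.05 edgeR and DESeq2 gave 0 higher and limma-voom 1. The median log2 fold change (5x21-OR1A1 over wild-type) was -1.81 over the 34 tested members, against 0.02 over all tested genes, and 33 of the 34 values were below 0. In 30 of the 34 every 5x21-OR1A1 library lay below every wild-type library, an arrangement that 12.5% of all tested genes showed. These 30 include Olfr628 and Olfr638, which entered the test only through their wild-type counts, so that their groups had to be apart. Olfr628 is also among the 23 falls. Of the 23 falls 12 were over 4-fold, 10 were between 2-fold and 4-fold, and that of Olfr598 was 1.999-fold. In this bulk tissue fewer neurons expressing a receptor and less receptor RNA in each neuron cannot be told apart.

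**Figure D1:**
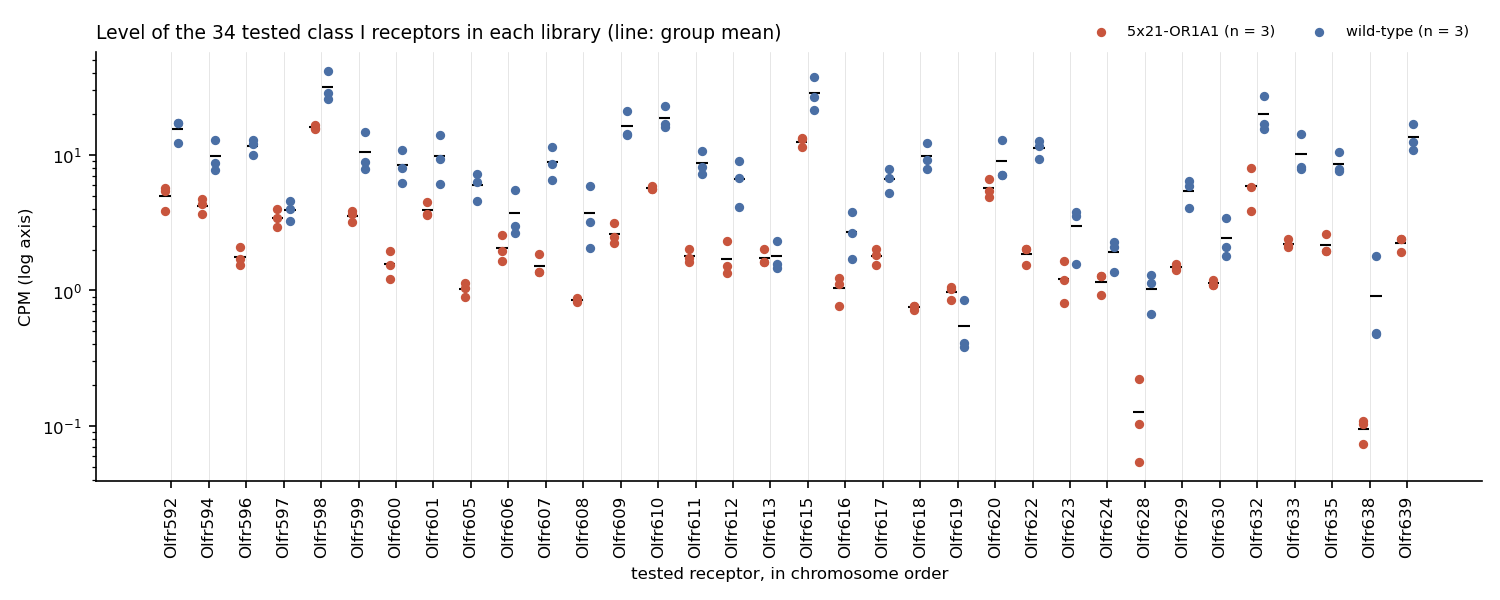
CPM on a log axis of the 34 tested receptors in chromosome order, with 3 5x21-OR1A1 libraries (left point column of each gene) and 3 wild-type libraries (right), and a line at each group mean. In 30 of the 34 genes the groups do not overlap, and group means run from 0.0952 to 16.0 CPM in 5x21-OR1A1 and from 0.548 to 31.9 CPM in wild-type libraries.

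The median coefficient of variation of a tested member was 14% in 5x21-OR1A1 and 27.7% in wild-type libraries. Over all genes replicates were compared by another measure, a chi-square per degree of freedom on counts, which abundant genes dominate. It was 85.9 to 217 between 5x21-OR1A1 libraries and 53.1 to 62.9 between wild-type libraries. The 2 measures are unlike, so they cannot be set against each other. Wild-type library 2 was the highest wild-type library for 32 of the 34 genes. Leaving out each of the 6 libraries in turn, 15 of the 23 calls were kept every time and none changed direction. The other 8, Olfr594, Olfr598, Olfr599, Olfr608, Olfr612, Olfr615, Olfr628 and Olfr632, lost significance without at least 1 5x21-OR1A1 library, and 16 members were called without any single one of these. The edgeR adjusted p of lost calls was 0.054 to 0.137. Without wild-type library 2, 3 of them were lost (Olfr612 at -1.67, Olfr628 at -2.86 and Olfr632 at -1.45), and without wild-type library 3 Olfr628 was lost (-2.99).

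The 6 receptors most abundant per length in wild-type libraries were all called lower, 3 of them only in the fit without sex as a term. Of all 34 tested members 23 were called lower. Choosing genes by their wild-type level favours falls, so the result for these 6 is a description. Per kilobase of annotated exon, Olfr598 (MOR23-5) was the highest member in wild-type libraries, followed by Olfr610 (MOR9-2), Olfr615 (MOR19-2), Olfr632 (MOR2-1), Olfr622 (MOR26-1) and Olfr599 (MOR23-1), with wild-type means of 15.7, 11.4, 8.24, 6.06, 4.98 and 4.82 CPM per kb. The median over the 34 tested members was 2.24 CPM per kb in wild-type libraries. Olfr598 was at 16.6, 15.8 and 15.5 CPM in 5x21-OR1A1 libraries, against 25.9, 41.3 and 28.5 CPM in wild-type libraries (log2 fold change -0.999, SE 0.17, edgeR adjusted p = 0.0231). Olfr615 was at 11.4, 13.2 and 13.0 CPM, against 26.6, 37.6 and 21.6 CPM in wild-type libraries (-1.19, SE 0.19, edgeR adjusted p = 0.0200). In both genes the groups were apart, and wild-type library 2 was the highest.

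Olfr610 was at 5.56, 5.94 and 5.56 CPM in 5x21-OR1A1 libraries, against 16.2, 23.0 and 16.8 CPM in wild-type libraries (-1.71, SE 0.16, edgeR adjusted p = 0.00268). Olfr632 was at 8.04, 5.80 and 3.83 CPM, against 16.99, 27.1 and 15.5 CPM in wild-type libraries (-1.75, SE 0.30, edgeR adjusted p = 0.0249). Olfr599 was at 3.65, 3.84 and 3.20 CPM, against 7.81, 14.9 and 8.86 CPM in wild-type libraries (-1.56, SE 0.25). Each of these 3 genes had its groups apart, with the widest spread among 5x21-OR1A1 libraries in Olfr632. The 5 members most abundant by CPM in wild-type libraries took 42.3% of all member counts in 5x21-OR1A1 and 37% in wild-type libraries, on average over libraries. With sex as a term, 3 of the 6 receptors most abundant per length no longer passed the edgeR test: Olfr598 (-0.90, adjusted p = 0.0545), Olfr599 (-1.43, adjusted p = 0.0537) and Olfr615 (-1.20, adjusted p = 0.0573).

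The largest falls among called members were those of Olfr618, Olfr628, Olfr596, Olfr609, Olfr639 and Olfr622. Olfr618 (MOR31-9) held 28, 21 and 21 counts in 5x21-OR1A1 libraries, or 0.763, 0.721 and 0.773 CPM, against 247, 443 and 266 counts, or 7.84, 12.2 and 9.20 CPM, in wild-type libraries. That was a log2 fold change of -3.69 (SE 0.22, edgeR adjusted p = 0.000913), 12.9-fold lower. The 5x21-OR1A1 libraries lay close together, and all far below the lowest wild-type library. Olfr628 (MOR22-4) held 2, 3 and 6 counts, against 21, 47 and 33 in wild-type libraries (-3.06, SE 0.50, edgeR adjusted p = 0.0201). Olfr596 was at 1.55, 2.09 and 1.69 CPM, against 11.9, 12.99 and 9.997 CPM in wild-type libraries (-2.71, SE 0.18, edgeR adjusted p = 0.000913). Both genes had their groups apart. Olfr628 had under 10 counts in every 5x21-OR1A1 library, so it entered the test only through its wild-type counts and had to differ. Its value ran from -3.69 without 5x21-OR1A1 library 3 (edgeR adjusted p = 0.0447) to -2.66 without 5x21-OR1A1 library 1 (edgeR adjusted p = 0.0996), and with sex as a term it did not pass (-2.95, edgeR adjusted p = 0.0635).

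Olfr609 (MOR9-1) was at 3.13, 2.23 and 2.47 CPM in 5x21-OR1A1 libraries, against 14.3, 21.2 and 13.98 CPM in wild-type libraries (-2.65, SE 0.22, edgeR adjusted p = 0.00167). Olfr622 was at 2.02, 2.02 and 1.55 CPM, against 11.7, 12.6 and 9.31 CPM in wild-type libraries (-2.58, SE 0.18, edgeR adjusted p = 0.00121). Olfr639 (MOR12-1), the last gene of the number range, was at 2.40, 2.40 and 1.91 CPM, against 12.5, 17.03 and 10.9 CPM in wild-type libraries (-2.59, SE 0.20, edgeR adjusted p = 0.00142). In all 3 every 5x21-OR1A1 library was far below every wild-type library. The 7 called members whose libraries are not listed singly (Olfr594, Olfr600, Olfr605, Olfr607, Olfr608, Olfr629 and Olfr633) had log2 fold changes from -2.56 in Olfr605 to -1.22 in Olfr594.

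Of the 34 tested members 11 did not pass the threshold, which does not show that they were unchanged. Among members with a mean of at least 1 CPM, the smallest changes were those of Olfr613 (MOR20-1), Olfr597 (MOR23-2), Olfr620 (MOR4-1) and Olfr624 (MOR4-2), and none passed the test. Olfr613 was at 2.02, 1.61 and 1.62 CPM in 5x21-OR1A1 libraries, against 1.46, 2.33 and 1.56 CPM in wild-type libraries (-0.03, SE 0.25, edgeR adjusted p = 0.970). Olfr597 was at 2.92, 3.98 and 3.42 CPM, against 4.001, 4.59 and 3.25 CPM in wild-type libraries (-0.20, SE 0.20, edgeR adjusted p = 0.662). Groups overlapped in both. Olfr620 was at 6.65, 4.91 and 5.45 CPM, against 7.14, 12.9 and 7.16 CPM in wild-type libraries (-0.68, SE 0.25, edgeR adjusted p = 0.229). Olfr624 was at 1.28, 1.27 and 0.921 CPM, against 1.37, 2.28 and 2.08 CPM in wild-type libraries (-0.72, SE 0.27, edgeR adjusted p = 0.235). In these 2 every 5x21-OR1A1 library lay below every wild-type library, by a small margin at the nearest pair. Of the other tested members that did not pass, Olfr601, Olfr606, Olfr616, Olfr623, Olfr630 and Olfr638 had values from -3.22 in Olfr638 to -0.86 in Olfr606. DESeq2 called all of these but Olfr606 lower, with DESeq2 adjusted p from 0.000152 in Olfr601 to 0.0327 in Olfr630. For Olfr606 it was 0.126.

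Olfr619 (MOR31-5) was the single tested member with a value above 0. It held 31, 31 and 28 counts in 5x21-OR1A1 libraries, against 13, 31 and 11 in wild-type libraries, or 0.845, 1.06 and 1.03 CPM in 5x21-OR1A1 and 0.413, 0.851 and 0.381 CPM in wild-type libraries (0.81, SE 0.36, edgeR adjusted p = 0.303). Groups overlapped, since wild-type library 2 at 0.851 CPM lay above the lowest 5x21-OR1A1 library. Its gene begins shortly beyond the end of Olfr618, the gene with the largest fall. The ratio of Olfr618 to Olfr619 counts was 0.903, 0.677 and 0.750 in 5x21-OR1A1 libraries, against 19, 14.3 and 24.2 in wild-type libraries. Olfr617, on the other side of Olfr618, was at 2.02, 1.82 and 1.55 CPM, against 6.73, 7.88 and 5.22 CPM in wild-type libraries (-1.88, SE 0.21, edgeR adjusted p = 0.00435). The 3 MOR31 neighbours covered the whole range of change seen among the tested members; the pair was chosen after its values were seen, and its difference is a description with no test.

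**Figure D2:**
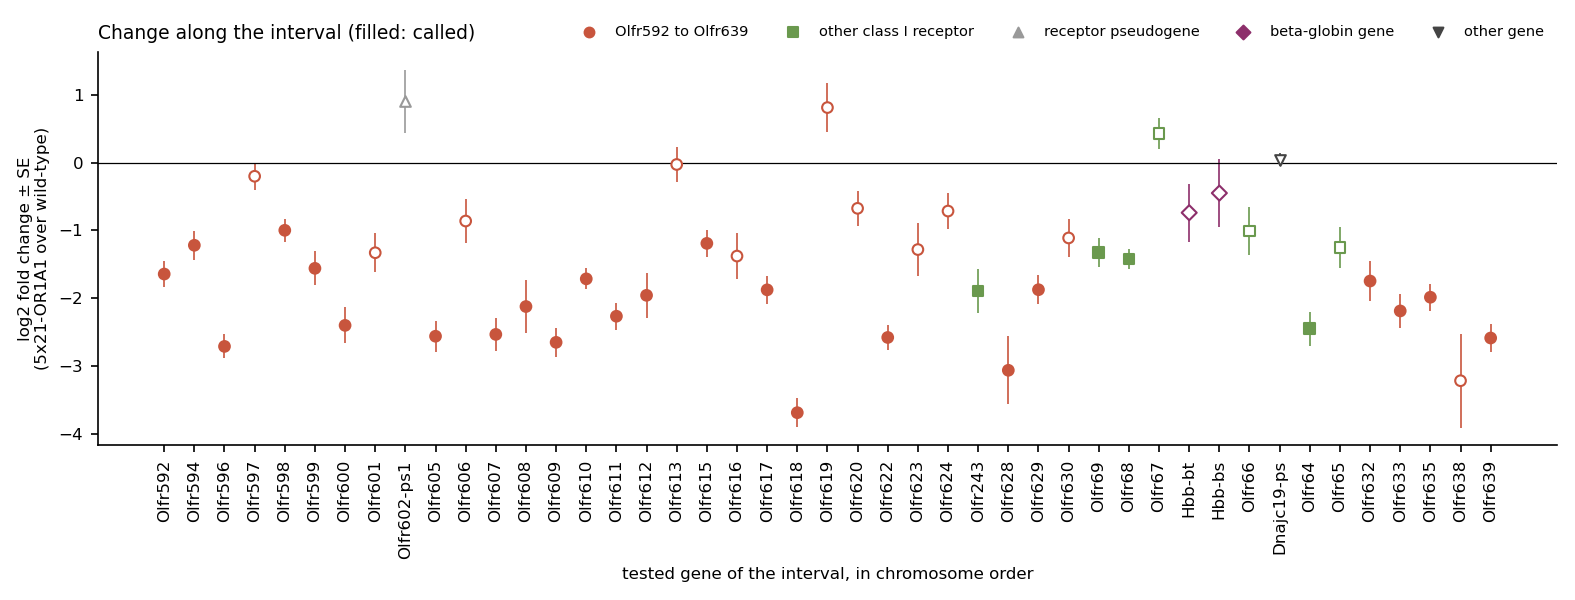
Log2 fold change (5x21-OR1A1 over wild-type) with its SE for every tested gene between the first and the last member, in chromosome order, with filled markers where the edgeR adjusted p is under 0.05. Members run from -3.69 at Olfr618 to 0.81 at its neighbour Olfr619, and the 2 tested beta-globin genes and Dnajc19-ps have open markers.

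The other 3 members had too few counts for the test. Olfr593 (MOR24-2) held 3, 1 and 1 counts in 5x21-OR1A1 libraries, against 16, 15 and 7 in wild-type libraries. Olfr603, the near copy of Olfr596, held 0, 0 and 1 counts in 5x21-OR1A1 and 0, 3 and 0 in wild-type libraries, and Olfr631 (MOR3-1) held 0, 1 and 0 in 5x21-OR1A1 and 1, 1 and 0 in wild-type libraries. The groups of Olfr593 were apart, whereas Olfr603 and Olfr631 were close to undetected in both genotypes. With no filter on low counts the edgeR adjusted p was 0.0287 for Olfr593 (-2.78), 0.786 for Olfr603 and 0.886 for Olfr631.

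Relatives were compared within subfamilies, as a description. The 3 MOR26 genes all fell (Olfr608 at -2.12, Olfr622 at -2.58 and Olfr629 at -1.88), as did both MOR12 genes (Olfr633 at -2.19 and Olfr639 at -2.59), both MOR9 genes (Olfr609 and Olfr610) and both MOR15 genes. Of the MOR15 pair, Olfr611 was at 2.02, 1.75 and 1.62 CPM in 5x21-OR1A1 libraries, against 8.13, 10.7 and 7.20 CPM in wild-type libraries (-2.27, SE 0.20, edgeR adjusted p = 0.00231). Olfr612 was at 1.34, 2.30 and 1.51 CPM, against 6.80, 8.98 and 4.12 CPM in wild-type libraries (-1.96, SE 0.33, edgeR adjusted p = 0.0227). Neither MOR4 gene and neither MOR17 gene (Olfr606 at -0.86 and Olfr630 at -1.11) passed the edgeR test, while DESeq2 called Olfr630 lower (adjusted p = 0.0327). The near-identical MOR23 neighbours Olfr597 and Olfr598 had values of -0.20 and -0.999, and the ratio of Olfr597 to Olfr598 counts was 0.176, 0.252 and 0.221 in 5x21-OR1A1 libraries, against 0.155, 0.111 and 0.114 in wild-type libraries. Of the MOR5 pair Olfr635 was at 1.96, 2.61 and 1.95 CPM, against 7.81, 10.4 and 7.58 CPM in wild-type libraries (-1.99, SE 0.20, edgeR adjusted p = 0.00341). Olfr638 held 4, 3 and 2 counts, against 15, 65 and 14 in wild-type libraries, so it too entered the test only through its wild-type counts, and its value of -3.22 (SE 0.69, edgeR adjusted p = 0.0553) was -2.26 without wild-type library 2, and it passed without wild-type library 1 (-3.53, edgeR adjusted p = 0.0432).

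**Figure D3:**
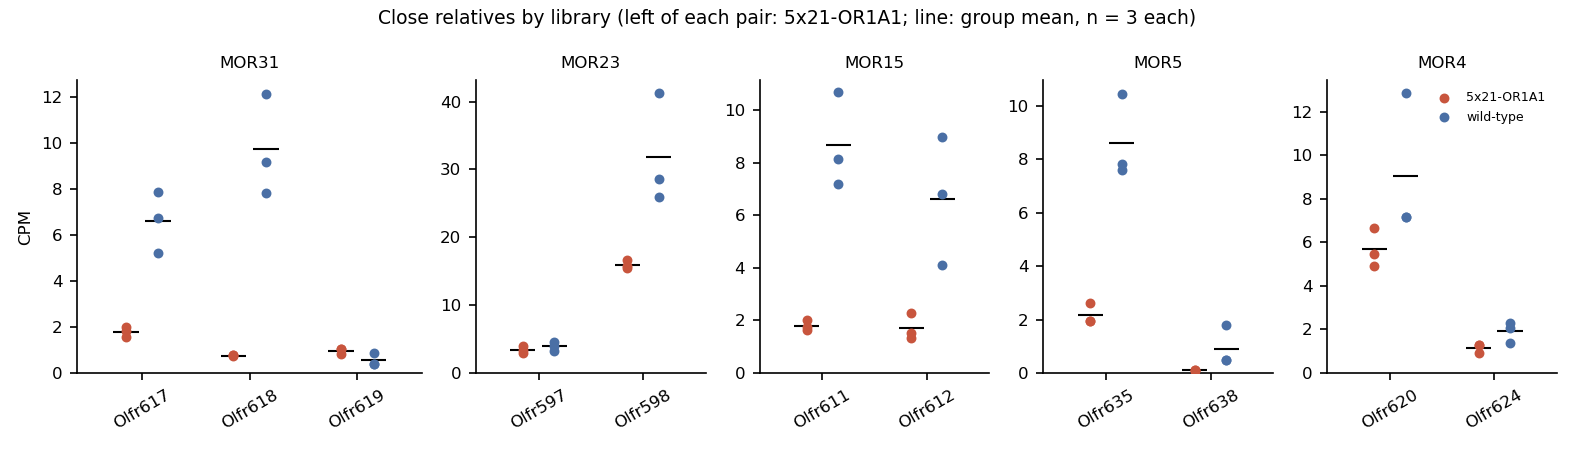
CPM by library for 5 groups of close relatives, with 5x21-OR1A1 libraries at the left and wild-type libraries at the right of each gene and a line at each group mean (n = 3 each). Olfr617 and Olfr618 are far lower in 5x21-OR1A1 libraries while Olfr619 averages 0.980 CPM in 5x21-OR1A1 and 0.548 CPM in wild-type libraries, and Olfr598 averages 16.0 CPM in 5x21-OR1A1 and 31.9 CPM in wild-type libraries.

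The change was also set against place and level. Of 29 tested members before the beta-globin genes 19 fell, with a median of -1.64, and of 5 tested members after them 4 fell, with a median of -2.19. On the plus strand 13 of 18 fell (median -1.70) and on the minus strand 10 of 16 (median -1.92). Among the 17 tested members with the higher levels per kilobase, averaged over both groups, 16 fell, and among the 17 with the lower levels 7 fell, with medians of -1.96 and -1.38. Values were below 0 for 17 of the former and 16 of the latter. Fewer counts make a call less likely at the same change, so the calls alone do not compare sizes of change. Across the 34 tested members Spearman's rho between level per kilobase and log2 fold change was -0.12, and between neighbouring members along the chromosome it was -0.09 over 33 pairs. These coefficients describe genes that share libraries, and genes are not replicates.

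Other genes lie among these receptors. The 8 class I receptors of the interval with other numbers gave 7 tested genes, of which Olfr64 (-2.45, SE 0.25), Olfr68 (-1.42, SE 0.15), Olfr69 (-1.33, SE 0.21) and Olfr243 (-1.90, SE 0.33) fell, with edgeR adjusted p of 0.00381 to 0.0249. Olfr65 (-1.25), Olfr66 (-1.01) and Olfr67 (0.43) did not pass. Olfr67, the receptor next to the globin genes on the side of lower coordinates, held 546, 459 and 367 counts in 5x21-OR1A1 libraries, against 347, 529 and 208 in wild-type libraries. Hbb-bs, an adult beta-globin of red blood cells, held 16290, 4319 and 8377 counts, against 22929, 8311 and 7941 in wild-type libraries (-0.45, SE 0.50, edgeR adjusted p = 0.707), and Hbb-bt had a value of -0.74 (edgeR adjusted p = 0.434). The groups overlapped for both globins, and 6 erythrocyte markers that include them summed to 452 to 1105 CPM in 5x21-OR1A1 and 722 to 1758 CPM in wild-type libraries. The processed pseudogene Dnajc19-ps, which lies inside Olfr66, was at 21.2 ± 1.33 CPM in 5x21-OR1A1 and 20.6 ± 1.61 CPM in wild-type libraries (SD, n = 3 each) with a value of 0.04, and Olfr602-ps1, the single receptor pseudogene tested, had 0.90 (edgeR adjusted p = 0.373).

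Just inside the number range Olfr592 (MOR32-13) was at 5.67, 5.39 and 3.83 CPM in 5x21-OR1A1 libraries, against 17.2, 17.2 and 12.2 CPM in wild-type libraries (-1.64, SE 0.20, edgeR adjusted p = 0.00591). Just outside it Olfr591 was at 3.63 ± 0.244 CPM in 5x21-OR1A1 and 13.7 ± 2.07 CPM in wild-type libraries (-1.92), and Olfr640 at 11.1 ± 0.258 CPM in 5x21-OR1A1 and 32.2 ± 6.72 CPM in wild-type libraries (-1.54; SD, n = 3 each). Both outer genes fell too, with edgeR adjusted p of 0.00142 and 0.00341.

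Summed over all 37 genes, the stretch took 0.0107, 0.0104 and 0.00926% of library counts in 5x21-OR1A1 libraries, against 0.0284, 0.0408 and 0.0244% in wild-type libraries. The means were 0.0101 ± 0.000745% in 5x21-OR1A1 and 0.0312 ± 0.00852% in wild-type libraries (SD, n = 3 each), a log2 ratio of -1.60 (SE 0.23) or 3.02-fold lower. The 90 other class I receptors of the cluster took 0.0284 ± 0.0019% in 5x21-OR1A1 and 0.0757 ± 0.0177% in wild-type libraries, a log2 ratio of -1.39 (SE 0.20). Receptors outside the cluster took 0.204 ± 0.0146% in 5x21-OR1A1 and 0.323 ± 0.051% in wild-type libraries, a log2 ratio of -0.65 (SE 0.15). By gene, 56 of 77 tested class I receptors other than members fell, with a median of -1.66, and 166 of 768 tested receptors outside the cluster fell while 17 rose, with a median of -0.63. Within the cluster 20 of 30 tested receptors before the members fell (median -1.59) and 32 of 40 after them (median -1.87). The difference between these sets was not tested.

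**Figure D4:**
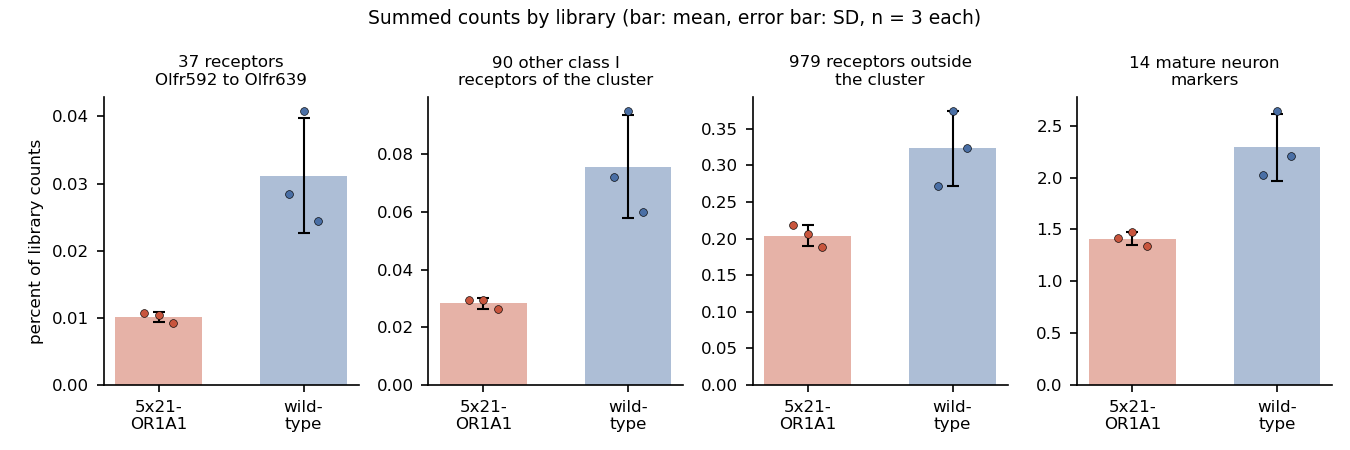
Percent of library counts by library for the 37 receptors, the 90 other class I receptors of the cluster, the receptors outside it and 14 mature neuron markers, with 5x21-OR1A1 libraries left of wild-type libraries (bars are means and error bars SD, n = 3 each). All 3 5x21-OR1A1 libraries lie below all 3 wild-type libraries in each panel, with means for the 37 receptors of 0.0101% in 5x21-OR1A1 and 0.0312% in wild-type libraries.

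The 14 mature neuron markers took 1.41 ± 0.0651% of counts in 5x21-OR1A1 and 2.29 ± 0.321% in wild-type libraries (SD, n = 3 each). In 12 of them every 5x21-OR1A1 library lay below every wild-type library, an arrangement that 12.5% of all tested genes showed. Omp was the most abundant of the 14, with means of 6787 CPM in 5x21-OR1A1 and 11518 CPM in wild-type libraries, so their sum follows Omp most. Log2 fold changes of the 14 ran from -0.81 to -0.06, with Omp at -0.76. Per count of these markers the summed 37 receptors were still lower, by a log2 ratio of -0.90 (SE 0.15), and per count of the receptors outside the cluster by -0.94 (SE 0.17). With these sums in place of library totals the fit moved the median of all genes to 0.71 and 0.66, and the members' median became -1.10 and -1.16, or -1.81 and -1.82 relative to the median gene. Scaled to mature neuron markers 23 members were called lower and 2 higher (Olfr613 at 0.70 and Olfr619 at 1.54), against 1.32% of all tested genes lower and 76.1% higher. Scaled to receptors outside the cluster 22 were lower and 1 higher (Olfr619 at 1.501), against 1.32% and 69.0%. With most genes called, an adjusted p under 0.05 admitted larger unadjusted p under both scalings than in the main fit. At an unadjusted p under 0.05 (edgeR), 24 members were lower and 2 higher under each, against 31 and 0 under TMM scaling. Olfr597, Olfr613 and Olfr620 were above 0 under both scalings and Olfr624 under the first, and Olfr598, at -0.28 and -0.32, was called under neither.

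**Figure D5:**
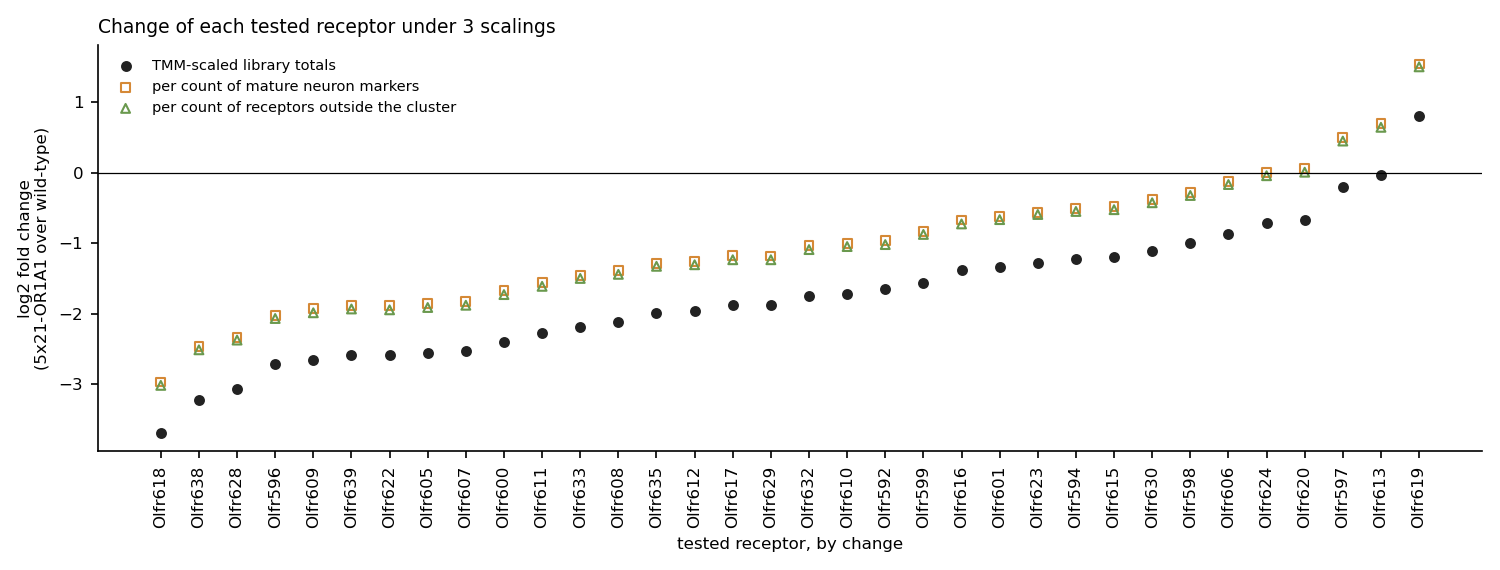
Log2 fold change (5x21-OR1A1 over wild-type) of each tested receptor, ordered by its change, under TMM scaling and under scaling to the sum of mature neuron markers or of receptors outside the cluster. All but Olfr597, Olfr613, Olfr619, Olfr620 and Olfr624 stay below 0 under all 3.

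Lists of genes of these neurons were read from the same fit, and they share genes with the mature neuron markers. Shared from the transduction list are Gnal, Adcy3, Cnga2, Cnga4, Cngb1, Ano2 and Gng13. Shared from the list of receptor choice and feedback are Rtp1 and Rtp2. Of 15 odorant transduction genes, whose median was -0.57, 3 fell and the other 12 did not reach the threshold. The 3 were Gng13, a G protein gamma subunit (-0.81), Ric8b, a chaperone of the olfactory G protein (-0.74), and Cnga4, a subunit of the cyclic nucleotide-gated channel (-0.68). Among 18 genes of receptor choice and feedback the median was -0.002, and Ebf4, which encodes a transcription factor, was the 1 that passed, at 90.4 ± 9.90 CPM in 5x21-OR1A1 and 151 ± 16.9 CPM in wild-type libraries (-0.74, SE 0.11, edgeR adjusted p = 0.0162; SD, n = 3 each). Bcl11b, a factor that in mouse holds class I choice in check, had a value of 0.45 (edgeR adjusted p = 0.0585), Lhx2, a homeodomain factor of receptor choice, -0.17, and Ldb1, its cofactor, 0.03. Of the 2 dorsal zone markers Nqo1, a quinone reductase of dorsal neurons, fell, at 243.5 ± 6.96 CPM in 5x21-OR1A1 and 553 ± 123 CPM in wild-type libraries (-1.18, SE 0.15, edgeR adjusted p = 0.00867), and Acsm4 had -0.45. The 2 ventral zone markers, Ncam2 (0.28) and Nrp2 (0.41), did not pass.

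By the same test 5 of 14 mature neuron markers fell (median -0.66), 4 of 9 immature neuron markers rose (median 0.44) and 6 of 9 progenitor markers rose (median 0.67), and the others of each list did not pass. The 5 include Gng13 and Cnga4, already counted above among the transduction genes. Omp, the olfactory marker protein of mature neurons, had a log2 fold change of -0.76, Gap43, of growing axons, 0.78, and Insm1, a factor of neuronal progenitors, 0.97. Tested markers of supporting cells (6, median -0.11), horizontal basal cells (4, 0.14), respiratory ciliated cells (5, 0.10) and erythrocytes (6, -0.44) did not pass. What part the share of mature neurons had in the receptors' change was not tested.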

How the data were processed

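Gene-level read counts were deposited by the authors as raw counts per gene symbol, with no normalization. Per the labels, poly-A RNA gave nonstranded libraries that were sequenced from a single end over 100 bp. The submitters' processing notes name TopHat2 2.1.1, HTSeq 0.9.1 and GRCm38.p5. Neither the annotation nor the counting options are stated there, and without strand, reads of overlapping genes cannot be told apart. Library totals ran from 27506217 to 35804712 counts.

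The genotypes were compared by edgeR 4.0.16 under R 4.3.3 (TMM scaling, expression filter at 10 counts and a total of at least 15, quasi-likelihood test on genotype, Benjamini-Hochberg adjustment over the 19267 genes kept), called at an adjusted p under 0.05. The SE of a log2 fold change is its size over the square root of F. On a single draw of simulated data the test recovered 30% of 1.5-fold, 67% of 2-fold, 96% of 3-fold and 94% of 4-fold changes. Of its calls on these data 9.09% were false, above the nominal rate. Coordinates and exon lengths came from GENCODE on the same build, in which 49627 of 53686 symbols were found once. Class I was taken as the 127 Olfr genes of the chromosome 7 cluster. Coding identity is over the longer sequence of a global alignment.

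Same-numbered libraries did not deviate together (correlations -0.333, 0.0723 and -0.17), so the replicate numbers were not used as pairs. No 2 replicates agreed within sampling noise, so none was merged. Values in every library are given for the 6 members highest per kilobase, the 6 largest falls, any called rise, the 4 smallest changes at 1 CPM or more, pairs of at least 95% identity (nucleotide identity in place of protein, for which no sequence was used) and the ends of the range. Olfr617 and Olfr619 were added, as neighbours of Olfr618, after their values were seen. The members and lists were chosen with earlier results of these data known. Alternatives were other scalings, DESeq2 1.42.0, limma-voom (limma 3.58.1), other filters, a replicate block, sex as a term, a stricter threshold and leaving out each library.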

Additional observations from a re-analysis of the deposited data

How the results depend on the processing

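The count of 23 members lower stayed within 1.5 times under all alternatives except an adjusted p under 0.01, which left 15 members and 154 genes in all. It was 28 by DESeq2, 22 by limma-voom, 27 with no filter, 22 with at least 1 CPM in 3 libraries and 17 with sex as a term, where Olfr598, Olfr599, Olfr615 and Olfr628 were among the calls lost. Leaving out a library gave 16 to 25 members, 150 to 626 genes in all and member medians of -1.96 to -1.59. Of 523 genes called in all, DESeq2 gave 1195, sex as a term 289, and scaling to mature neuron markers and to receptors outside the cluster 14912 and 13556, around the shifts of the median gene by 0.71 and 0.66. With so many genes called, an adjusted p under 0.05 was a looser cut under the 2 scalings. Their counts of members called are thus not like for like with the main 23. Under these 2 scalings the members' median was -1.10 and -1.16, the members called higher were 2 and 1, the members' share had log2 ratios of -0.90 and -0.94 and that of the other class I receptors -0.70 and -0.74. They turned Olfr597 to 0.49 and 0.45, Olfr613 to 0.70 and 0.64 and Olfr620 to 0.0605 and 0.0073, and the first turned Olfr624 to 0.0027. Olfr613, at -0.03, was 0.0931 with sex as a term and -0.16 to 0.22 when a library was left out. The replicate numbers did not pair the libraries, and with the number as a block 22 members were lower and 377 genes were called, and leaving out a library gave share ratios of -1.76 to -1.39 for the members and -1.55 to -1.22 for the other class I receptors. Olfr619, Olfr628 and Olfr638 were not tested with at least 1 CPM in 3 libraries.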
